A study of Mus musculus with 22 samples.

Results

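Cxcl9, Cxcl10 and Cxcl11 encode the ligands of the chemokine receptor CXCR3. These 3 genes, of 19935 measured by name, were selected by their symbols in the array's annotation, and each was covered by 1 probe set with a single symbol. They were followed in male C57bl6 mice aged 9 to 12 weeks, in the hypothalamus, which holds the centre of temperature control. The IL-6 KO mice (KO below) lack the cytokine interleukin-6, and the WT mice were their littermates. Each mouse received 1 intraperitoneal injection, either saline or 120 µg/kg of LPS, the lipopolysaccharide of the Escherichia coli wall and a common trigger of fever, and was killed after 3 hours and perfused with saline before dissection. The 22 arrays fell into 7 KO LPS, 7 WT LPS, 4 KO saline and 4 WT saline arrays. Neither the altered part of Il6 nor the mouse behind each array was given in the labels, so p-values reflect array-to-array spread, which may be technical.

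CXCR3 ligands are small secreted chemokines that draw activated T cells and NK cells, which carry the receptor, towards inflamed tissue. Their genes lie in a cluster on chromosome 5, with Art3 between Cxcl9 and Cxcl10 in the RefSeq order, and are known targets of interferons, acting through interferon regulatory factors, and of NF-kB. Cxcl9 is known for its dependence on interferon-gamma, whereas Cxcl10 also answers to type I interferons and to LPS itself. In the brain, Cxcl10 is made by endothelial cells, glia and neurons during inflammation. C57BL/6 mice carry a shifted reading frame in Cxcl11 and make no full-length protein from it, and RefSeq lists the gene in GRCm38.p6 as a transcribed pseudogene. Values of Cxcl11 here are therefore those of its RNA.

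The promoters of Cxcl9 and Cxcl10 are shown because both genes are known to be switched on through interferon and NF-kB motifs in this stretch. RefSeq (GRCm38.p6) gives the 250 bases before the start of each gene, on the minus strand, at chr5:92328080-92328329 for Cxcl9 and at chr5:92348890-92349139 for Cxcl10. They are printed 5′ to 3′ along the gene, with matches to the motifs searched in capitals.

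Cxcl9: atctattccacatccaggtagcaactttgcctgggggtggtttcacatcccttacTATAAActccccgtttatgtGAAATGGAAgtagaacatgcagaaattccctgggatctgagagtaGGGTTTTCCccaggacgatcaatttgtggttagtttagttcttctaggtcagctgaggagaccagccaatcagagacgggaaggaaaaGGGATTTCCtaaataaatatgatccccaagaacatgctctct

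Cxcl10: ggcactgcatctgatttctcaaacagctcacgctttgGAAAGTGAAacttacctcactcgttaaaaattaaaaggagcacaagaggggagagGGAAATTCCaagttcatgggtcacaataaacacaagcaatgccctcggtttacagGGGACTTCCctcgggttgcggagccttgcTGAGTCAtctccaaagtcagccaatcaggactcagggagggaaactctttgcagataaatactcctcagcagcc

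Motifs were searched on both strands, and no match overlapped a match of another motif. GAAANNGAA, the core of the interferon-stimulated response element, matched 175 to 167 bases before the start in Cxcl9 and 213 to 205 bases before it in Cxcl10. It matched in 7.13% of 32851 promoter windows of the same length. The NF-kB form GGANNTTCC matched in Cxcl10, 158 to 150 bases before the start and on both strands, against 3.59% of all windows. A second NF-kB form, GGGNNTTCC, was added after the sequences had been seen and is no independent search. It matched 130 to 122 and 42 to 34 bases before the start in Cxcl9 and 103 to 95 bases before it in Cxcl10, against 4.98% of all windows. TGANTCA, the AP-1 motif, matched 74 to 68 bases before the start of Cxcl10 (6.75% of windows), and TATAAA 195 to 190 bases before that of Cxcl9 (12.4% of windows). The GAS letters TTCNNNGAA had no match in either window and matched in 7.02% of all windows. A match describes the letters only.

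Each value below is a log2 difference from the probe set's median over the 22 arrays, because the deposited values were centred in that way. They hold no level of a gene, so the height of one gene cannot be set against another's, and the presence of hypothalamic markers could not be checked. A group difference is the mean of the first group minus that of the second. A gene was called when its limma p, adjusted by Benjamini-Hochberg over all 19935 genes, was under 0.05. The labels do not say whether the probe set of Il6 lies in the altered part of the gene, so it could not serve as a check of the KO label. It averaged 0.24 ± 0.20 in KO and 0.07 ± 0.14 in WT after LPS (SD, n = 7 each), and -0.12 ± 0.04 in KO and -0.14 ± 0.04 in WT after saline (SD, n = 4 each). LPS raised this signal in KO by 0.36 (SE 0.08, adjusted p = 0.0193, limma), whereas the difference in WT was 0.21 (SE 0.08, adjusted p = 0.457, limma). The interaction was 0.15 (SE 0.12, 95% confidence interval -0.09 to 0.39, adjusted p = 0.999994, limma). Some arrays were high in genes of neighbouring tissue. The choroid plexus gene Ttr lay between 2.43 and 4.62 in WT saline replicate 1 and WT LPS replicates 2 and 5, and was also 1.98 in KO LPS replicate 4 and 1.23 in KO saline replicate 2. The pituitary gene Gh lay between 2.20 and 3.96 in KO saline replicate 2 and KO LPS replicates 3 and 5. In a fit with the 4 groups, 4286 genes (21.5%) differed between arrays numbered 1 to 11 and arrays numbered 12 to 22 in the labels. None of the CXCR3 ligands was among them (adjusted p = 0.459 for Cxcl10, 0.901 for Cxcl11 and 0.905 for Cxcl9, limma). Arrays 12 to 22 minus arrays 1 to 11 gave -0.17 for Cxcl10, 0.03 for Cxcl11 and -0.03 for Cxcl9. The genotypes were spread unevenly over these numbers, with 2 KO LPS and 5 WT LPS arrays in 1 to 11 and 5 and 2 in 12 to 22.

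LPS raised Cxcl10 in both genotypes by more than any other gene measured by name, and raised Cxcl11 in both by a smaller amount. Cxcl9 was higher on average after LPS in both genotypes without passing the test. Of the 3 ligands, 2 were called higher in KO, where 1.08% of all genes were, and the same 2 in WT, where 1.42% were. Genes called lower made up 0.256% in KO and 0.376% in WT and held no ligand.

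Cxcl10, also known as IP-10, ran between -0.64 and 0.78 in KO LPS arrays, with a median of 0.21, and between 0.01 and 0.73 in WT LPS arrays, with a median of 0.37. In KO saline arrays it lay at -4.24, -4.35, -4.24 and -4.40, and in WT saline arrays at -4.62, -4.43, -4.53 and -4.52. All LPS arrays were far above all saline arrays: the gap between the lowest LPS array and the highest saline array was 3.60 in KO and 4.43 in WT. Groups separated in this direction for 1.21% of all genes in KO and 1.63% in WT. LPS raised Cxcl10 by 4.41 in KO (SE 0.19, 21.3-fold, adjusted p = 9.02e-14, limma). In WT it rose by 4.88 (SE 0.19, 29.5-fold, adjusted p = 1.89e-14, limma). Both were the largest log2 differences of all genes, with a median over all genes of -0.01 in each genotype. They were 2.32 in KO and 2.67 in WT, and still called, when the centred arrays were quantile-normalized again.

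Cxcl11, also known as I-TAC, ran between -0.51 and 0.46 in KO LPS arrays, with a median of 0.06, and between 0.004 and 0.66 in WT LPS arrays, with a median of 0.32. In KO saline arrays it lay at -0.78, -0.80, -0.94 and -0.58, and in WT saline arrays at -0.90, -0.75, -0.97 and -0.74. LPS and saline arrays did not overlap in either genotype, but the gap was 0.07 in KO and 0.75 in WT. Such separation with LPS higher was found for 1.21% of all genes in KO and 1.63% in WT. In KO Cxcl11 rose by 0.81 (SE 0.13, 1.76-fold, adjusted p = 0.000537, limma), and in WT by 1.16 (SE 0.13, 2.23-fold, adjusted p = 3.05e-06, limma). Ordered by size, these were the differences ranked 60 in KO and 41 in WT. When the arrays were quantile-normalized again, the KO difference was 0.52 and no longer called (adjusted p = 0.215, limma). The call was also lost within arrays 1 to 11 in KO, where the difference was 0.84 (adjusted p = 0.0658, limma), and within arrays 12 to 22 in both KO (0.80, adjusted p = 0.0806) and WT (1.09, adjusted p = 0.345). Over 37 alternatives the p ran between 7.35e-06 and 0.215 in KO and between 2.88e-09 and 0.345 in WT.

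Cxcl9, also known as Mig, ran between -0.44 and 0.87 in KO LPS arrays, with a median of 0.18, and between -0.01 and 0.34 in WT LPS arrays, with a median of 0.12. In KO saline arrays it lay at -0.48, -0.45, -0.41 and -0.05, and in WT saline arrays at -0.36, -0.33, -0.17 and -0.29. In WT every LPS array was above every saline array, by at least 0.16, whereas in KO 5 of 7 LPS arrays were above the highest saline array. Full separation with LPS higher was found for 1.63% of all genes in WT. The LPS difference of Cxcl9 was 0.54 in KO (SE 0.15, 95% confidence interval 0.22 to 0.85, adjusted p = 0.118, limma). In WT it was 0.41 (SE 0.15, 95% confidence interval 0.09 to 0.73, adjusted p = 0.413, limma). Neither passed over all genes. The outcome depended on the spread the test used, since the SD was 0.43 in KO LPS arrays and 0.13 in WT LPS arrays. Fitted on WT arrays alone, the WT difference passed (SE 0.07, adjusted p = 0.00294, limma). The KO difference was 0.64 and passed without KO LPS replicate 4 (adjusted p = 0.00796, limma), and was 0.60 without KO LPS replicate 5 (adjusted p = 0.0425). The exact permutation test over arrays, two-sided and not adjusted, gave p = 0.0485 in KO and p = 0.00303 in WT, the smallest p that 330 regroupings allow. Over 37 alternatives the p ran between 0.00796 and 0.712 in KO and between 0.00294 and 0.960 in WT.

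**Figure D1:**
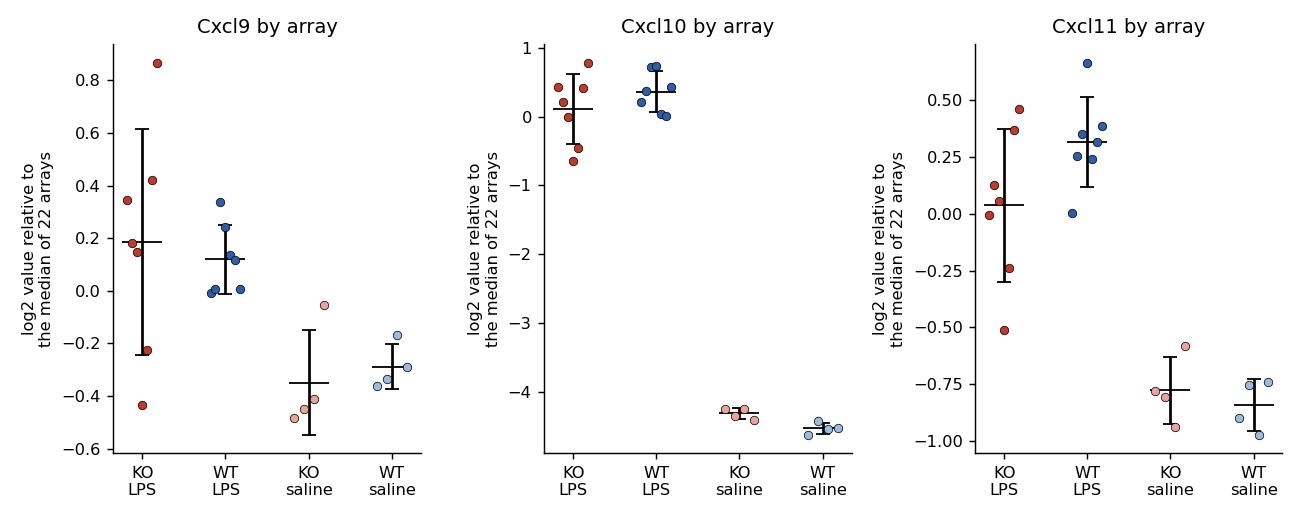
Values of Cxcl9, Cxcl10 and Cxcl11 in each array (points) by group, as log2 values relative to the probe set's median over 22 arrays, with the group mean (horizontal line) and SD (error bar) over 7 LPS or 4 saline arrays. Cxcl10 lies between -0.64 and 0.78 in LPS arrays and between -4.62 and -4.24 in saline arrays, while Cxcl9 overlaps between KO LPS and KO saline arrays.

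The comparison of KO with WT after LPS asks which genes differ after LPS in mice that lack IL-6, whose body temperatures were not at hand. None of the CXCR3 ligands was called in it; 8 genes (0.0401% of all) were. Cxcl10 averaged 0.10 ± 0.51 in KO LPS arrays and 0.36 ± 0.30 in WT LPS arrays (SD, n = 7 each). The difference was -0.26 (SE 0.16, 95% confidence interval -0.59 to 0.08, adjusted p = 0.550, limma), and 3 of 7 KO arrays lay above the WT median. It was -0.13 without KO LPS replicate 4, -0.16 without KO LPS replicate 5 and -0.10 within arrays 1 to 11, which hold 2 KO LPS and 5 WT LPS arrays. Cxcl11 averaged 0.04 ± 0.33 in KO LPS arrays and 0.32 ± 0.20 in WT LPS arrays (SD, n = 7 each). Its difference was -0.28 (SE 0.11, 95% confidence interval -0.52 to -0.04, adjusted p = 0.379, limma), and 2 of 7 KO arrays lay above the WT median. Without adjustment this p was 0.0221, as it was under 0.05 for 2267 genes, and by exact permutation over arrays, two-sided, it was 0.0787. Cxcl9 averaged 0.19 ± 0.43 in KO LPS arrays and 0.12 ± 0.13 in WT LPS arrays (SD, n = 7 each), a difference of 0.07 (SE 0.13, 95% confidence interval -0.20 to 0.34, adjusted p = 0.876, limma). The sign of this difference rested on single arrays, since it was -0.05 without KO LPS replicate 7 and 0.17 without KO LPS replicate 4. The intervals allow Cxcl10 and Cxcl11 to be lower in KO by 0.59 and 0.52, and do not show that the genotypes are alike. They use 1 spread shared by all 4 groups, and the saline arrays varied less than the LPS arrays. The saline SD was 0.08 in both genotypes for Cxcl10, and 0.15 in KO and 0.11 in WT for Cxcl11. The intervals may therefore be too narrow for the LPS arrays.

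After saline, no ligand was called between KO and WT, where 1 gene (0.00502%) was. Cxcl10 averaged -4.31 ± 0.08 in KO saline arrays and -4.52 ± 0.08 in WT saline arrays (SD, n = 4 each). All 4 KO saline arrays were above all 4 WT saline arrays, with a gap of 0.02 between the nearest, as in 1.78% of all genes. The difference was 0.22 (SE 0.22, 95% confidence interval -0.23 to 0.66, adjusted p = 0.866, limma), and the exact permutation p, two-sided and not adjusted, was 0.0286, the smallest that 70 regroupings allow. In a fit on saline arrays alone the SE was 0.06 and the adjusted p 0.733 (limma). Cxcl11 averaged -0.78 ± 0.15 in KO saline arrays and -0.84 ± 0.11 in WT saline arrays (SD, n = 4 each), and the groups overlapped. Its difference was 0.06 (SE 0.15, 95% confidence interval -0.25 to 0.38, adjusted p = 0.948, limma). Cxcl9 averaged -0.35 ± 0.20 in KO saline arrays and -0.29 ± 0.09 in WT saline arrays (SD, n = 4 each). Its difference was -0.06 (SE 0.17, 95% confidence interval -0.42 to 0.30, adjusted p = 0.958, limma).

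Whether LPS acted differently in the genotypes was tested as an interaction, the LPS difference in KO minus that in WT. It was -0.47 for Cxcl10 (SE 0.27, 95% confidence interval -1.03 to 0.09) and -0.34 for Cxcl11 (SE 0.19, 95% confidence interval -0.74 to 0.05). For Cxcl9 it was 0.13 (SE 0.22, 95% confidence interval -0.32 to 0.58). The adjusted p was 0.999994 for each (limma), and no gene of 19935 was called (0%), with 327 under 0.05 before adjustment. The exact permutation test of genotype within treatment, two-sided and not adjusted, gave p = 0.0513 for Cxcl10, 0.0586 for Cxcl11 and 0.531 for Cxcl9. It regroups genotypes within each treatment and so assumes no genotype difference in either, which makes it no exact test of the interaction alone. The sign for Cxcl10 and Cxcl11 held when any single array was left out, with values between -0.58 and -0.35 for Cxcl10 and between -0.41 and -0.25 for Cxcl11.

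**Figure D2:**
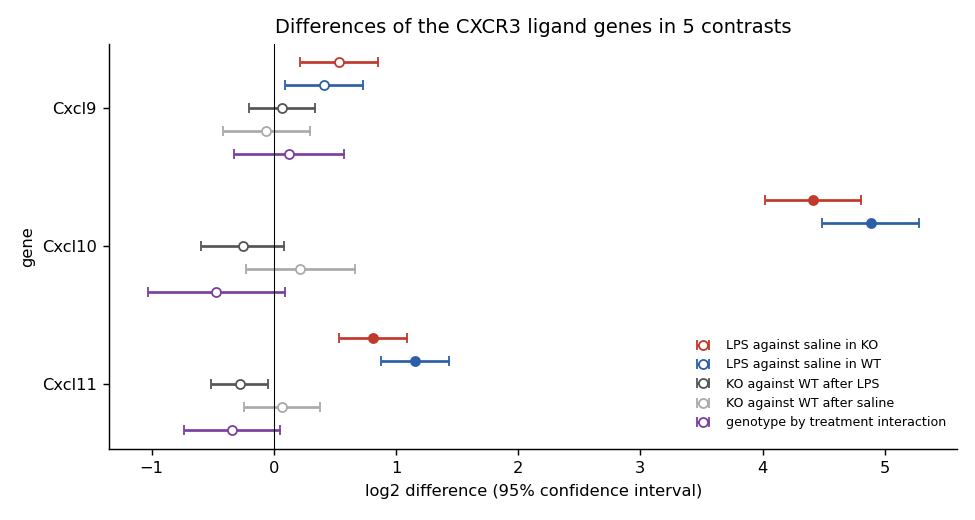
Log2 differences (points) with 95% confidence intervals (bars, limma) for each CXCR3 ligand gene in 5 contrasts, filled where the adjusted p was under 0.05. The filled points are the LPS differences of Cxcl10 (4.41 in KO, 4.88 in WT) and Cxcl11 (0.81 in KO, 1.16 in WT), and every interaction interval includes 0.

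The ligands varied together among the KO LPS arrays. KO LPS replicate 7 had the highest value of all 3 genes (0.87 for Cxcl9, 0.78 for Cxcl10, 0.46 for Cxcl11). Replicates 4 and 5 had the lowest, with -0.44 and -0.23 for Cxcl9, -0.64 and -0.45 for Cxcl10, and -0.51 and -0.24 for Cxcl11. Both low arrays, numbered 15 and 16, were neighbours in number, replicate 4 had the highest Ttr value of the KO LPS arrays (1.98), and replicate 5 was one of those high in Gh (2.20). The part of array number or neighbouring tissue in the low values was not tested. Correlations were computed within each genotype after LPS over 7 arrays, 6 pairs in all, with exact permutation p-values adjusted over the 6. In KO the pair Cxcl9 and Cxcl10 had Pearson's r of 0.982 (exact p = 0.000397, adjusted 0.00238) and Spearman's rho of 0.964 (exact p = 0.00278, adjusted 0.0167). Cxcl9 and Cxcl11 had r of 0.942 (exact p = 0.00397, adjusted 0.00873) and rho of 0.893 (exact p = 0.0123, adjusted 0.0369). Cxcl10 and Cxcl11 had r of 0.925 (exact p = 0.00437, adjusted 0.00873) and rho of 0.786 (exact p = 0.0480, adjusted 0.0960). Without the 2 arrays farthest from the median of the first gene, r was 0.978, 0.842 and 0.715 in that order. The arrays may share a degree of response to LPS, which was not tested, and these p-values do not show a link particular to the ligands. The share of other gene pairs with such r was not computed.

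Among WT LPS arrays the same pairs did not pass. Cxcl9 and Cxcl10 had r of 0.547 (exact p = 0.210, adjusted 0.210) and rho of 0.429 (exact p = 0.354, adjusted 0.354). Their r was -0.858 without the 2 arrays farthest from the Cxcl9 median, WT LPS replicates 3 and 4. Replicate 1 (-0.007) lay almost as far from that median (0.117) as replicate 4 (0.242). The positive value was lost without those arrays, but the value of -0.858 rests on a near tie. Cxcl9 and Cxcl11 had r of 0.558 (exact p = 0.205, adjusted 0.210) and rho of 0.571 (exact p = 0.200, adjusted 0.240), with r of 0.295 without the farthest. Cxcl10 and Cxcl11 had r of 0.619 (exact p = 0.138, adjusted 0.206) and rho of 0.714 (exact p = 0.0881, adjusted 0.132), with r of 0.559 without the farthest. The difference between the genotypes in these correlations was not tested. No value within arrays 1 to 11 or 12 to 22 is given, because KO LPS has 2 and 5 arrays there and WT LPS 5 and 2.

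**Figure D3:**
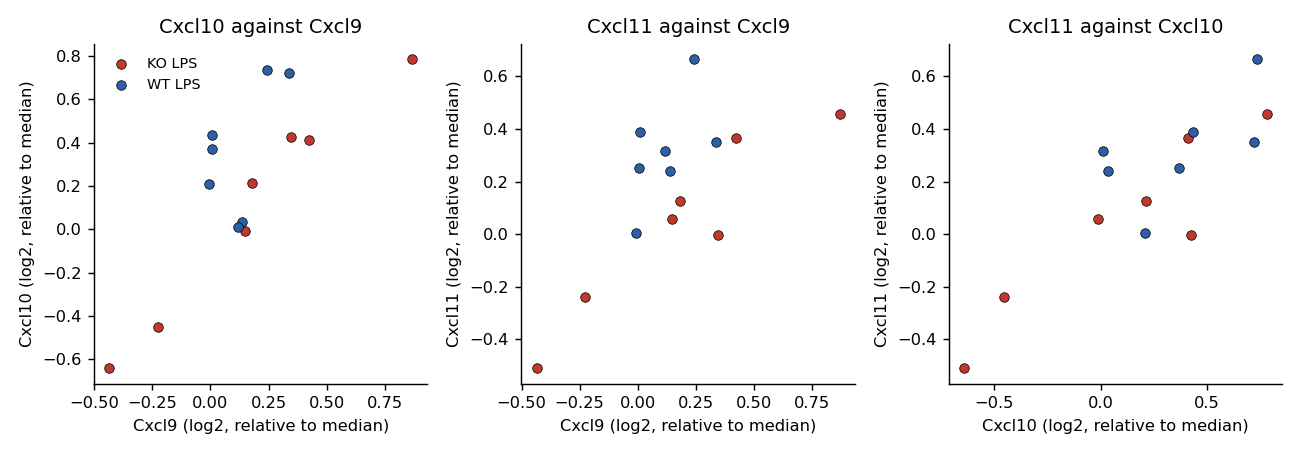
Pairs of CXCR3 ligand genes plotted against each other over the LPS arrays, each point 1 array, on log2 axes relative to the median of 22 arrays. In KO the arrays run from both genes low (replicates 4 and 5) to both high (replicate 7), with r between 0.925 and 0.982, while WT arrays cover a narrower range with r between 0.547 and 0.619.

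The genes most like each ligand were named by Pearson's r over the 14 LPS arrays, after each genotype's mean had been subtracted. Because the arrays may share a degree of response to LPS, r is given as a description with no p. For Cxcl10 the 5 highest were the monocyte-attracting chemokine genes Ccl2 (r = 0.938) and Ccl7 (0.934), the interferon-induced Plscr1 (0.923), Errfi1 (0.923), an inhibitor of EGF receptor signalling, and Lcn2 (0.918), which encodes an iron-siderophore-binding acute-phase protein. For Cxcl9 they were Cxcl10 (0.892), the RNA sensor gene Ifih1 (0.861), Cxcl11 (0.859), the glycolytic regulator Pfkfb3 (0.852) and the interferon-induced exonuclease gene Isg20 (0.833). For Cxcl11 they were Gm6377 (0.911), Cxcl9 (0.859), Pfkfb3 (0.847), the interferon-induced GTPase gene Gbp4 (0.847) and Cxcl10 (0.846). Cxcl9 stood at rank 10 and Cxcl11 at rank 42 among the genes most like Cxcl10.

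The receptor side showed no called change with LPS, where 1.34% of all genes were called in KO and 1.8% in WT. At these shares a short list may well hold none. Cxcr3, the receptor of all 3 ligands, had an LPS difference of -0.05 in KO (SE 0.06) and -0.07 in WT (SE 0.06). Of 7 measured genes of the CXCR3 list, which also holds the ligand-trimming protease gene Dpp4 and the atypical receptors, none was called in either genotype (limma). The smallest p was that of Ackr1, which encodes an atypical receptor of venular endothelium that binds chemokines, with 0.17 in KO (SE 0.07, adjusted p = 0.564, limma) and 0.22 in WT (SE 0.07, adjusted p = 0.135, limma). Of 13 measured markers of T and NK cells, the cells that carry CXCR3, none was called either. Their differences lay between -0.10 and 0.06 in KO and between -0.10 and 0.07 in WT, and their mean per array between -0.08 and 0.06 in KO LPS, -0.03 and 0.07 in WT LPS, -0.06 and 0.11 in KO saline and -0.01 and 0.08 in WT saline arrays. Centred values do not say whether such markers were detected at all.

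Upstream of the ligands, the interferon genes Ifng and Ifnb1 were not called: Ifng had -0.02 in KO and 0.06 in WT (SE 0.06 each), and Ifnb1 0.001 in KO and 0.004 in WT (SE 0.06 each). Of 20 measured interferon signalling genes, 4 rose in KO (median of the list 0.05) and 5 in WT (median 0.08), and none fell. The signalling brake Usp18 rose by 1.30 in KO and 1.35 in WT (SE 0.10 each). Irf7, which amplifies type I interferon responses, rose by 0.98 in KO and 0.91 in WT (SE 0.11 each), and Stat2 by 0.38 in KO and 0.43 in WT (SE 0.07 each). Irf1, a factor of the interferon-gamma pathway, rose by 0.38 in KO and 0.34 in WT (SE 0.08 each).

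The list of TLR4 and NF-kB signalling genes had 25 measured members, of which 6 rose in KO (median 0.12) and 6 in WT (median 0.11), with none lower. The NF-kB inhibitor gene Nfkbia rose by 1.35 in KO and 1.36 in WT (SE 0.13 each), and the LPS co-receptor gene Cd14 by 0.40 in KO and 0.70 in WT (SE 0.10 each). The NF-kB brake Tnfaip3 rose by 0.56 in KO and 0.72 in WT (SE 0.14 each). The called genes were not all the same in KO and WT. Myd88 was called in WT (0.63, SE 0.10, adjusted p = 0.000156, limma) but not in KO (0.34, SE 0.10, adjusted p = 0.102, limma). Nfkbiz was called in KO (0.38, SE 0.08, adjusted p = 0.0149, limma) but not in WT (0.22, SE 0.08, adjusted p = 0.405, limma). These calls do not show a difference between the genotypes. The interaction was -0.29 for Myd88 (SE 0.14) and 0.15 for Nfkbiz (SE 0.12), with an adjusted p of 0.999994 for each (limma). Of 14 measured interferon-gamma target genes, 8 rose in KO (median 0.48) and 7 in WT (median 0.44). The GTPase gene Gbp5 rose by 3.13 in both (SE 0.13), Iigp1 by 2.59 in KO and 2.61 in WT (SE 0.13 each), Gbp3 by 1.83 in KO and 1.82 in WT (SE 0.14 each) and Irgm1, an autophagy-linked GTPase gene, by 1.49 in KO and 1.74 in WT (SE 0.12 each). Cd274, which encodes the T cell inhibitor PD-L1, rose by 1.48 in KO and 1.45 in WT (SE 0.11 each). The LPS differences of Cxcl11 and Cxcl9 were smaller than that of Gbp5 in each genotype, and that of Cxcl10 larger, as values on different probe sets.

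Of 13 other CXC and CX3C chemokine genes measured, none was called higher and 1 was called lower in each genotype, while 9 of the 13 differences were positive in each. The gene called lower was Cxcl12, which encodes a homeostatic chemokine of endothelium and stroma, and it fell by 0.30 in KO (SE 0.08, adjusted p = 0.0473, limma) and by 0.46 in WT (SE 0.08, adjusted p = 0.000392, limma). The neutrophil attractant Cxcl1 had 0.37 in KO (SE 0.10, adjusted p = 0.0746, limma) and 0.23 in WT (SE 0.10, adjusted p = 0.647, limma). Cxcl2, which encodes another neutrophil attractant, had 0.34 in KO (SE 0.12, adjusted p = 0.354, limma) and 0.30 in WT (SE 0.12, adjusted p = 0.478, limma). The list was not tested against the ligands. On chromosome 5, none of 13 measured neighbours of the cluster was called in either genotype. Over all genes, 1.34% were called in KO and 1.8% in WT. Art3, between Cxcl9 and Cxcl10, had -0.03 in KO and 0.06 in WT (SE 0.05 each), and Nup54, next to Cxcl11, had 0.03 in KO and 0.12 in WT (SE 0.08 each). Between KO and WT, no member of these 6 gene lists was called after LPS, where 0.0401% of all genes were, or after saline, where 0.00502% were. At such shares a count of 0 says little about the lists.

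**Figure D4:**
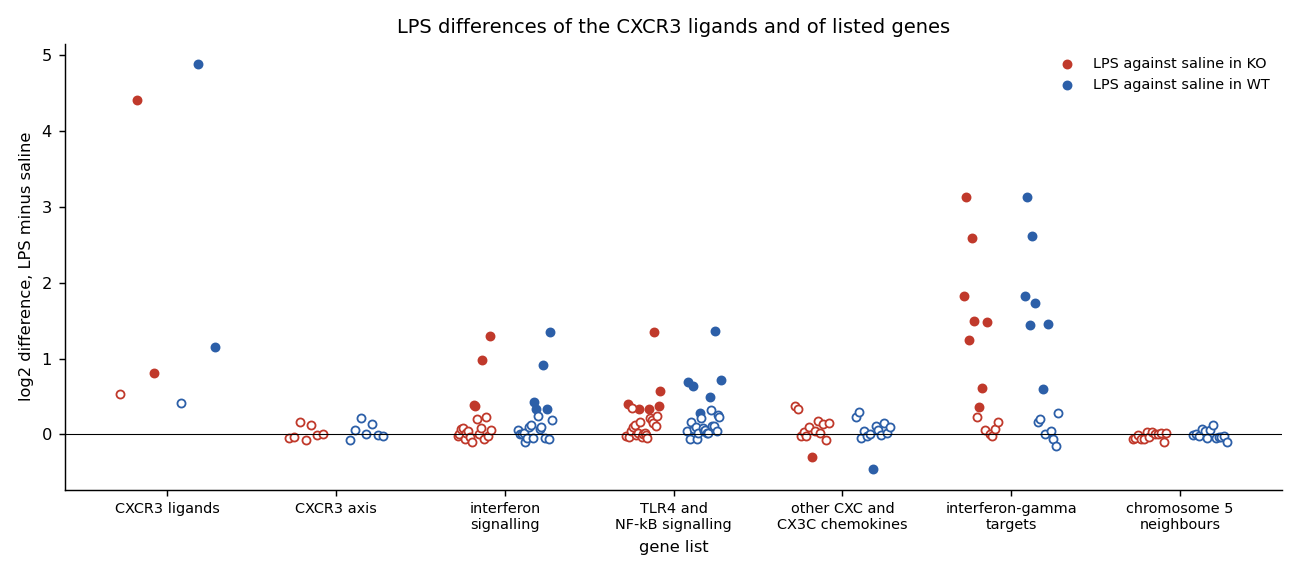
LPS minus saline log2 differences of the CXCR3 ligands and of the genes of 6 lists, each point 1 gene, KO left of WT, filled where the adjusted p was under 0.05 (limma). Cxcl10 stands above all listed genes at 4.41 in KO and 4.88 in WT, while the chromosome 5 neighbours lie between -0.11 and 0.03 in KO and between -0.10 and 0.12 in WT.

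Markers of brain cells that can make these ligands moved with LPS in part. Of 8 endothelial markers, 5 fell in KO and 6 in WT, among them the tight-junction gene Cldn5 by 1.08 in KO and 1.14 in WT (SE 0.11 each). The differences of 1 marker in KO and 2 in WT were positive but not called, with 0.13 in KO and 0.31 in WT for the endothelial cadherin gene Cdh5 (SE 0.10 each, adjusted p = 0.147 in WT, limma). Their mean per array lay between -0.10 and 0.13 in KO LPS, between -0.19 and -0.10 in WT LPS, between 0.32 and 0.48 in KO saline and between 0.27 and 0.43 in WT saline arrays. Of 7 microglia markers, none was called in KO and 1, Cx3cr1, in WT, where it fell by 0.46 (SE 0.08, adjusted p = 0.00123, limma). In KO its difference was -0.25 (SE 0.08, adjusted p = 0.273, limma), and its interaction was 0.21 (SE 0.12, adjusted p = 0.999994, limma). No astrocyte, neuron, or monocyte and neutrophil marker was called. In whole hypothalamus, fewer cells of a type and less RNA per cell cannot be told apart, and the part of these cells in the ligand values was not tested.

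**Figure D5:**
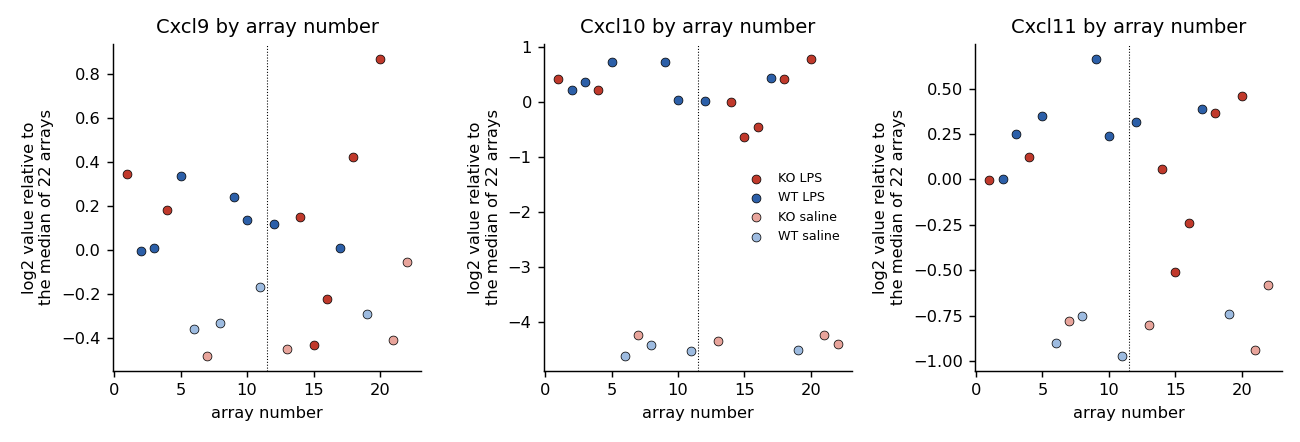
Values of each CXCR3 ligand gene (log2, relative to the median of 22 arrays) against the array number of the labels, coloured by group, with a dotted line between arrays 11 and 12. The lowest KO LPS values of all 3 genes are those of arrays 15 and 16, and the saline arrays of Cxcl10 lie between -4.62 and -4.24 on both sides of the line.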

How the data were processed

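RNA of the hypothalamus (200 ng) was labelled with biotin for an Affymetrix array, per the labels' protocols. The deposited table held log2 values of 28815 probe sets for 22 arrays, made with RMA per the submitters' processing notes. No probe set had a median over the 22 columns farther from 0 than 7.02e-07, so the deposited values were centred, and the base of the logarithm, taken as 2 as in RMA, was not given in the sources used here. Names came from the platform annotation and were updated by gene ID through RefSeq (GRCm38.p6), in which 21689 of 21780 with 1 symbol matched; 1605 with several symbols and 5430 with none were left out. Probe sets were averaged per gene, which gave 19935 genes.

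Differences were tested with limma 3.58.1 in R 4.3.3, with 1 mean per group over all 22 arrays, default empirical Bayes moderation, two-sided tests and Benjamini-Hochberg adjustment over all genes. The fit was tested on simulated data. Errors of differences are SEs and those of means are SDs. The number of arrays limits the precision; centring removed the levels that a filter on dim genes needs. The 3 genes are named in every contrast. Of each gene list, up to 4 called genes with the largest change were eligible, or the gene with the smallest p; some were left out for length, and Ifng, Ifnb1, Dpp4, Cd274, Cxcl1, Cxcl2, Cdh5, Art3, Ttr and Gh were added after their values were seen. The genes, lists and tests were chosen with earlier results of these data known. Replicates were numbered in deposition order and pair no arrays. Alternatives covered the naming and use of probe sets, the arrays in the fit, array number, moderation, array weights, scaling, a filter on spread, arrays with neighbouring tissue, exact permutation and leaving out each array.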

Additional observations from a re-analysis of the deposited data

Results flagged for a closer look

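Cxcl9 in KO saline replicate 4 lay at -0.0549, apart from the other 3 KO saline arrays at -0.48, -0.45 and -0.41. Its gap to the nearest of them was 0.830 of the group's range, which is only just over Dixon's critical value at the 95% level for 4 arrays. In the same array Cxcl11 was the highest of its group at -0.58 and Cxcl10 the lowest at -4.40. Of 12 groups of values examined in this way, 1 stood out, and chance marks about 1 in 20. Without this array the KO minus WT difference of Cxcl9 after saline was -0.16.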

How the results depend on the processing

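The LPS p of Cxcl10 stayed under 0.05 in both genotypes under all 37 alternatives, unadjusted in exact permutation (p = 0.00303) and adjusted in the others. Its difference lay between 2.32 and 4.56 in KO and between 2.67 and 4.94 in WT. Both lowest values came from a second quantile normalization, which replaces the extreme values of centred arrays with averages and set the KO minus WT difference of Cxcl10 after saline to 0. The call of Cxcl11 was lost in KO under that normalization (0.52), in arrays 1 to 11 (0.84) and in arrays 12 to 22 (0.80), and in WT in arrays 12 to 22 (1.09). Arrays 12 to 22 hold 1 WT saline array and arrays 1 to 11 hold 1 KO saline array, each assumed to vary like the other groups. Cxcl9 passed in KO in arrays 1 to 11 (0.75), among the more variable genes (0.54) and by unadjusted exact permutation (0.54), and without single arrays ranged between 0.42 and 0.64, passing without KO LPS replicate 4 or 5. In WT it passed within WT arrays (0.41), in arrays 1 to 11 (0.43) and by exact permutation (0.41). The unadjusted exact permutation p was also under 0.05 for Cxcl10 between KO and WT after saline (0.22). Of the other values of the 3 genes, none crossed the threshold, but uncalled ones moved: without single arrays the KO minus WT difference after LPS ran between -0.37 and -0.13 for Cxcl10 and between -0.05 and 0.17 for Cxcl9, and that of Cxcl11 after saline was -0.03 within arrays 12 to 22, against 0.06 over all arrays.

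Counts of called genes moved more. In KO the LPS count of 267 was 145 in arrays 1 to 11 and 166 in arrays 12 to 22, and in WT that of 359 was 45 in arrays 12 to 22. The 8 genes between KO and WT after LPS became 614 with array weights, 17 after renormalization, 16 among the more variable genes, 2 with the array number groups 1 to 11 and 12 to 22 as a term, 1 with only the groups compared or without 4 or 6 arrays of neighbouring tissue, and 0 within arrays 1 to 11 or arrays 12 to 22. Leaving out single arrays gave 2 to 47, the highest without KO LPS replicate 1. The 1 gene after saline became 3 among the more variable genes, 0 in the fits of only the groups compared, within arrays 1 to 11 or 12 to 22, after renormalization and without the 6 arrays, and 0 to 2 without single arrays. The set of 6 arrays was chosen after seeing the data and does not hold KO LPS replicate 4. No paired analysis was possible because the labels number each array once over all groups.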
